A study of Mus musculus with 6 samples.

Results

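The 10 genes described here encode cytoplasmic actins (Actb and Actg1), alpha tubulins (Tuba1a, Tuba1b and Tuba1c), beta tubulins (Tubb2a, Tubb4b and Tubb5) and the paired keratins Krt8 and Krt18. They were taken by gene symbol from a table of 53023 genes, and each symbol named 1 row. Levels were measured by RNA-seq in ICR mouse two-cell embryos collected at 28 hours post insemination (hpi), in 3 groups of 2 libraries with 5 pooled embryos per library. PIASy-WT embryos had received mRNA for HA-tagged PIASy, an E3 ligase for the small protein modifier SUMO, and PIASy-Mut embryos had received the same mRNA with the C335F change in the RING finger. Both mRNAs were injected into fertilized oocytes at 100 ng/µl between 1.5 and 3 hpi, and embryos with a fluorescence signal at 9 hpi were kept. The non-injection group received no mRNA and no injection, so it is no control for the injection itself. The study counts the libraries of a group as biological replicates, and the labels do not say whether they came from separate matings or collections, so P-values measure the spread between these libraries. No oocyte or one-cell library was used here, so whether a gene was switched on by the two-cell stage cannot be read from these values.

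Actin monomers assemble into filaments that form the cell cortex and the cleavage furrow. An alpha and a beta tubulin pair into the unit from which microtubules and the mitotic spindle are built, and each family has several genes whose proteins are nearly alike. Keratins assemble from a type II and a type I chain, of which Krt8 and Krt18 are the pair of simple epithelia and of the outer layer of the blastocyst.

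In the non-injection libraries the mean FPKM (fragments per kilobase of gene, scaled to the library total) ran from 122 ± 0.936 (SD, n = 2) for Tubb4b to 0.245 ± 0.346 for Krt8. In PIASy-WT embryos Tubb4b fell against PIASy-Mut, by a log2 difference of −1.83 ± 0.38 (SE), and Krt18 rose against non-injection, by 2.21 ± 0.40. Of 18 alternative settings, 4 kept the first call and 10 the second, which voom weights on fragments did not keep. These were 1 of 9 tested genes in each comparison. Among all 16100 genes tested, 6.01% were lower in PIASy-WT than in PIASy-Mut and 1.03% were higher than in non-injection by the same rule, an adjusted P no higher than 0.05 with a log2 difference of 1 or more in size. The other 7 tested genes did not pass in any comparison, and Krt8 was too low to enter this test.

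The sequences show how far reads from these genes can be told apart, since the authors counted only uniquely mapped reads. Actb and Actg1 have coding sequences of 1128 bases that match at 88.7% of positions. Their first 45 coding bases are printed because the 2 proteins are known to differ mainly at this end. Both stretches lie in exon 2 of 6 on the minus strand (GRCm38/mm10, GENCODE M21), for Actb at chr5:142905642-142905686 and for Actg1 at chr11:120348047-120348091, and capitals mark the 9 bases that differ.
Actb: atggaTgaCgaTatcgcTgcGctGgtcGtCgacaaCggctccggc
Actg1: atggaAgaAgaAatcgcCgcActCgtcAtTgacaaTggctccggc

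The 3 beta tubulins share 82.2 to 84.2% of aligned coding bases, and the 3 alpha tubulins 96.8 to 98.3%. Krt8 and Krt18, which are of different keratin types, share 39.8%. The last 75 coding bases of the beta tubulins, stop codon included, are printed because the acidic tail encoded there is where the beta tubulin proteins are known to diverge most. All 3 stretches lie in exon 4 of 4 on the minus strand, for Tubb2a at chr13:34074468-34074542, for Tubb4b at chr2:25222308-25222382 and for Tubb5 at chr17:35834982-35835056. Capitals mark bases that are not the same in all 3 genes when the whole coding sequences are aligned.
Tubb2a: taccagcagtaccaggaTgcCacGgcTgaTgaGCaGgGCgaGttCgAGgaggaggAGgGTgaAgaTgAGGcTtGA
Tubb4b: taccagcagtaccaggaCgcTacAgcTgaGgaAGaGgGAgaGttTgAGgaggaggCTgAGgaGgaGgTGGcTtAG
Tubb5: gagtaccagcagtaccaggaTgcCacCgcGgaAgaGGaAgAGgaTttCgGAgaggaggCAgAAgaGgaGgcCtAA

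Of all stretches of 50 bases in the annotated transcripts of each gene, 75.5% for Tuba1a, 75.1% for Tuba1b and 52.7% for Tuba1c also occurred in another gene. The share was 49.6% for Tubb2a, mostly with Tubb2b, and 41.3% for Tubb4b, mostly with its processed pseudogene Tubb4b-ps1. It was 37.4% for Actg1, 29.7% for Krt8 and 9.12% for Actb, and under 1% for Tubb5 (0.0892%) and Krt18 (0.720%). Low levels of Tuba1a, Tuba1b and Actg1 are therefore uncertain, because a fragment that lies wholly in a shared stretch was not counted for any gene. Tubb4b-ps1 held between 0 and 7 fragments in a library, against 98 to 463 for Tubb4b. Tubb4b also overlaps Fam166a on the other strand, which held at most 2 fragments, and whether counting used the strand is not given in the sources used here.

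The libraries held from 871663 to 1363928 fragments, so 3 fragments, the limit that a count of 0 allows, correspond to 2.20 to 3.44 CPM (counts scaled to the library total). The injected gene was high in the injected groups only. Pias4, the gene of PIASy, stood at 2.98 and 3.59 FPKM (non-injection), 862 and 611 (PIASy-Mut) and 610 and 579 (PIASy-WT). Of genes that mark the stage, 10 of 10 oocyte genes and 9 of 9 two-cell stage genes exceeded 3 fragments in at least 1 library. Summed FPKM of the oocyte genes was 2754 to 3190 (non-injection), 3068 to 4398 (PIASy-Mut) and 4243 to 4948 (PIASy-WT). Most of this sum came from Oosp1 and Bmp15, while Zp3 went the other way, at 70.9 and 73.5, 80.6 and 74.6, and 25.1 and 22.4 FPKM in the same order. Summed FPKM of the two-cell stage genes was 1332 to 1386, 1430 to 1498 and 682 to 931 in the same order. Within it Tcstv3 stood at 464 and 562, 706 and 523, and 277 and 193 FPKM, and Zfp352 was also lowest in PIASy-WT. Usp17la stood at 19.9 and 13.0, 10.2 and 32.8, and 25.3 and 23.9, above non-injection in PIASy-WT. Zscan4d, at 127 and 102, 61.4 and 187, and 126 and 75.4, and Zscan4c overlapped between the groups. Of 14 cumulus cell genes, 6 exceeded 3 fragments in any library and Amh and Inhba were at 0 in all, with summed FPKM of 10.6 to 11.5, 11.1 to 12.9 and 8.30 to 8.52. Within that sum Amhr2 stood at 8.06 and 7.51, 6.77 and 4.58, and 1.13 and 1.74 FPKM, and Tnfaip6 at 1.72 and 2.07, 2.83 and 5.37, and 4.85 and 5.09. Of 6 spermatid genes, 1 exceeded 3 fragments in any library, Tnp2 and Akap4 were at 0 in all, and summed FPKM was 4.92 to 5.89, 1.96 to 3.60 and 2.73 to 3.38. The part of these differences in the results that follow was not tested. Values are shares of each library, so fewer cells of a type and less RNA per cell cannot be told apart.

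Tubb4b, a beta tubulin made in most cell types and used in cilia and spindles, lies at chr2:25222160-25224702 on the minus strand. It stood at 121 and 123 FPKM (non-injection), 215 and 98.9 (PIASy-Mut) and 39.7 and 40.8 (PIASy-WT). Both PIASy-WT libraries were thus below all 4 others, as they were in 24.4% of all genes tested, and the 2 PIASy-Mut libraries stood on either side of non-injection. The counts behind these levels were 110 and 98 fragments in PIASy-WT and at least 180 in every other library.

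PIASy-WT minus PIASy-Mut was −1.83 ± 0.38 (SE) on the log2(FPKM + 1) scale for Tubb4b, with a 95% interval of −2.76 to −0.90 and an adjusted P=0.0472 (limma, Benjamini-Hochberg over all 16100 genes tested). Against non-injection the difference was −1.58 ± 0.38, with an interval of −2.51 to −0.65 and an adjusted P=0.0626 in limma, which missed the threshold of 0.05. Of 18 alternatives, 4 kept the call against PIASy-Mut (adjusted P in limma between 0.00251 and 0.264) and 5 gained one against non-injection (between 0.0061 and 0.303). The call against PIASy-Mut was lost with a pseudocount of 0.1 or 5, no filter, quantile normalization and median-ratio scaling. It was also lost with no mean-variance trend, robust eBayes and the replicate block. Adjusted P in limma was 0.0501 to 0.0833 in these fits, while 254 to 971 of all genes still passed at a difference of 1 or more. Without either non-injection or either PIASy-WT library the difference from PIASy-Mut was −1.85 to −1.81. Without PIASy-Mut library 1, which held the highest Tubb4b level, the difference from PIASy-Mut was −1.27. Without PIASy-Mut library 2 it was −2.39.

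Tubb2a, a beta tubulin best known from brain, lies at chr13:34074274-34078007 on the minus strand. It stood at 56.9 and 67.6 FPKM (non-injection), 70.4 and 86.2 (PIASy-Mut) and 88.1 and 124 (PIASy-WT). Both PIASy-WT libraries were above all 4 others, as in 19.9% of all genes tested, and PIASy-WT library 1 by less than 2 FPKM over PIASy-Mut library 2. The difference from non-injection was 0.75 ± 0.28 (95% interval 0.07 to 1.42) with an adjusted P=0.147 in limma, and from PIASy-Mut 0.42 ± 0.28 (−0.26 to 1.10) with an adjusted P=0.381 in limma, so neither passed. Its near copy Tubb2b held 1, 1, 0 and 1 fragments in the 4 other libraries and 11 and 7 in PIASy-WT, against 117 to 230 for Tubb2a.

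Tubb5, the beta tubulin that most dividing cells express, lies at chr17:35833921-35838306 on the minus strand. It stood at 21.2 and 20.7 FPKM (non-injection), 27.4 and 13.8 (PIASy-Mut) and 6.58 and 14.4 (PIASy-WT). PIASy-WT library 2 exceeded PIASy-Mut library 2, so the groups overlapped. The difference was −1.02 ± 0.47 from non-injection (95% interval −2.17 to 0.12; adjusted P=0.216 in limma) and −0.92 ± 0.47 from PIASy-Mut (−2.07 to 0.22; adjusted P=0.263 in limma).

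The beta tubulin with the highest FPKM differed between the groups, which the bar chart of the 3 genes per library shows. The FPKM ratio of Tubb4b to Tubb2a within a library was 2.13 and 1.82 (non-injection), 3.05 and 1.15 (PIASy-Mut) and 0.451 and 0.329 (PIASy-WT). Both PIASy-WT ratios lay below those of all 4 other libraries. This follows from Tubb4b being below and Tubb2a above all 4 others, so it adds no separate result. The ratio of this pair was not among those planned. Which of the 2 genes was the higher within a library is uncertain where the ratio is near 1, since 41.3% and 49.6% of their sequences are shared with other genes. Tubb4b made up 60.9% and 58.2% of the summed FPKM of the 3 genes (non-injection), 68.7% and 49.7% (PIASy-Mut) and 29.6% and 22.8% (PIASy-WT). Tubb2a made up 28.5% and 32.0%, 22.5% and 43.3%, and 65.5% and 69.2% in the same order. The ratio is given as values without a test, and the smallest P that exact permutation of 2 against 2 libraries allows is 0.333.

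**Figure D1:**
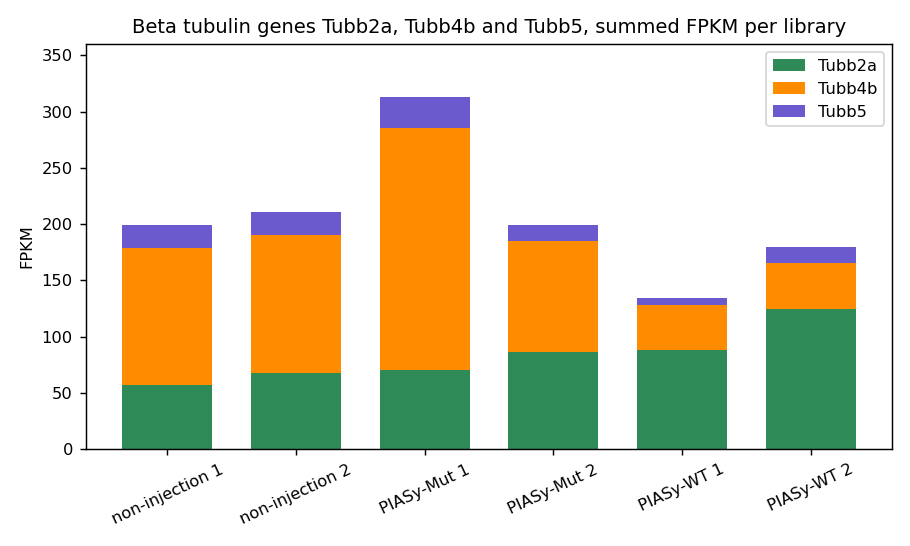
Stacked bars give the FPKM of Tubb2a, Tubb4b and Tubb5 in each of the 6 libraries, on a linear axis from 0. The Tubb4b segment was 39.7 and 40.8 FPKM in PIASy-WT and between 98.9 and 215 in the other libraries, while the Tubb2a segment was 88.1 and 124 in PIASy-WT and between 56.9 and 86.2 in the others.

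The 250 bases before the RefSeq start of Tubb4b and Tubb2a are printed because in both PIASy-WT libraries Tubb4b stood below and Tubb2a above all 4 others, and those of Krt18 because it rose. Capitals mark matches, on either strand, to the CCAAT box (CCAAT), the GC box (GGGCGG) and the TATA box (TATAAA), which are common in promoters. The stretches are chr2:25224703-25224952 on the minus strand for Tubb4b, chr13:34078009-34078258 on the minus strand for Tubb2a and chr15:102027966-102028215 on the plus strand for Krt18 (GRCm38.p6, 5′ to 3′).
Tubb4b: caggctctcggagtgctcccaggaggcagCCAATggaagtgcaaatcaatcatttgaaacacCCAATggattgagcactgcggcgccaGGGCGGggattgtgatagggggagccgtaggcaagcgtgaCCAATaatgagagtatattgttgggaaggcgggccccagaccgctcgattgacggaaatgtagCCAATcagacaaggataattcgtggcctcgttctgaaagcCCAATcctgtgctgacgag
Tubb2a: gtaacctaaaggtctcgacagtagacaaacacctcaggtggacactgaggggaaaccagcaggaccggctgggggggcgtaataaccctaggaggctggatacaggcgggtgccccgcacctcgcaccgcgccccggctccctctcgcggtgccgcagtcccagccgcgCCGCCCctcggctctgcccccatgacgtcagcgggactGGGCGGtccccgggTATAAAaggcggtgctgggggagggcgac
Krt18: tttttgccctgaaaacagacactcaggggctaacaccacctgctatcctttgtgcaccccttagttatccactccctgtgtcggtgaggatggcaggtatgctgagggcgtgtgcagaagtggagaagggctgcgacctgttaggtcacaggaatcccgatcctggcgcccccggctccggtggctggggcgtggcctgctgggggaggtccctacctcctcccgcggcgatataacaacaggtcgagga

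The Tubb4b stretch held CCAAT 5 times, with first bases at −221, −188, −122, −59 and −19 from the start, and GGGCGG once at −162. The Tubb2a stretch held TATAAA at −29 and GGGCGG at −81 and −43, and no CCAAT. None of the searched letters occurred in the Krt18 stretch. Among all 32851 RefSeq windows of 250 bases before to 50 after a start, 37.4% held CCAAT, 35.7% held GGGCGG and 13.6% held TATAAA, on either strand. As many as 5 CCAAT matches occurred in 89 windows (0.271%), a count made after the Tubb4b sequence had been seen. Of the 9 genes with a window (Actb had no entry), 5 held CCAAT, 6 held GGGCGG and 3 held TATAAA. The CArG box, the site known for serum response factor at actin genes, was held by Actg1 alone of the 9, at −90, and by 1.63% of all windows. A match describes the letters and says nothing of use in these embryos.

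Tuba1c had the highest FPKM of the 3 alpha tubulins in every library, an order that the unequal sharing of their sequences leaves uncertain, and lies at chr15:99029891-99038105 on the plus strand. It stood at 32.3 and 25.9 FPKM (non-injection), 51.5 and 28.4 (PIASy-Mut) and 24.0 and 19.8 (PIASy-WT). Both PIASy-WT libraries were below all 4 others, by less than 2 FPKM from non-injection library 2. The difference was −0.39 ± 0.35 from non-injection (95% interval −1.25 to 0.47; adjusted P=0.503 in limma) and −0.78 ± 0.35 from PIASy-Mut (−1.64 to 0.07; adjusted P=0.211 in limma).

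Tuba1a, the alpha tubulin of growing neurons, lies at chr15:98949841-98953551 on the minus strand. It stood at 3.56 and 6.98 FPKM (non-injection), 6.47 and 2.79 (PIASy-Mut) and 3.66 and 12.1 (PIASy-WT). The highest value came from PIASy-WT library 2, with 23 fragments, and the other PIASy-WT library lay within the range of the rest. Tuba1b, an alpha tubulin made in most cells, lies at chr15:98931425-98934565 on the minus strand and had 1.17 and 4.24, 2.58 and 1.22, and 3.22 and 5.57 FPKM in the same order. Its counts ranged from 2 to 12 fragments and the groups overlapped. The difference from PIASy-Mut was 0.56 ± 0.64 for Tuba1a (95% interval −1.00 to 2.12; adjusted P=0.604 in limma). For Tuba1b it was 0.90 ± 0.57 (−0.49 to 2.29; adjusted P=0.364 in limma), and from non-injection the differences were 0.38 ± 0.64 (−1.18 to 1.94) and 0.64 ± 0.57 (−0.75 to 2.03), which did not pass.

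The summed FPKM of the 3 alpha tubulins was 37.0 and 37.2 (non-injection), 60.5 and 32.4 (PIASy-Mut) and 30.9 and 37.5 (PIASy-WT), so the groups overlapped. That of the 3 beta tubulins was 199.6 and 211, 313 and 199, and 134 and 180. The ratio of this alpha to this beta sum lay at 0.185 and 0.176, 0.194 and 0.163, and 0.230 and 0.209, which was highest in the PIASy-WT libraries. The sums leave out Tuba3b and Tuba4a, each above Tuba1a and Tuba1b in every library, and the beta tubulins Tubb3 and Tubb6. The ratio of all alpha to all beta tubulins was not computed, and the unequal sharing of sequences leaves the printed ratio uncertain.

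Actb, the cytoplasmic actin often used as a reference gene, lies at chr5:142903115-142906754 on the minus strand. It stood at 65.4 and 65.4 FPKM (non-injection), 57.9 and 80.9 (PIASy-Mut) and 104 and 96.8 (PIASy-WT), from 160 to 370 fragments. Both PIASy-WT libraries were above all 4 others. The difference was 0.61 ± 0.26 from non-injection (95% interval −0.01 to 1.23; adjusted P=0.182 in limma) and 0.55 ± 0.26 from PIASy-Mut (−0.08 to 1.17; adjusted P=0.228 in limma), so neither passed.

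Actg1, the second cytoplasmic actin, lies at chr11:120345690-120348542 on the minus strand and was far lower. It stood at 2.21 and 4.32 FPKM (non-injection), 3.28 and 3.02 (PIASy-Mut) and 1.99 and 4.91 (PIASy-WT), from 7 to 15 fragments. The PIASy-WT libraries were the lowest and the highest of the 6. The difference was 0.02 ± 0.49 from either group, with 95% intervals of −1.17 to 1.22 and −1.18 to 1.21 (adjusted P=0.994 and 0.988 in limma). The FPKM ratio of Actb to Actg1 was 29.6 and 15.1, 17.6 and 26.8, and 52.4 and 19.7 in the 3 groups. More of the Actg1 sequence than of the Actb sequence is shared with other genes, so this ratio is uncertain.

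Krt18, the type I chain of the simple epithelial pair, lies at chr15:102028216-102032026 on the plus strand. It stood at 1.05 and 1.26 FPKM (non-injection), 3.46 and 5.74 (PIASy-Mut) and 10.8 and 7.46 (PIASy-WT). Both PIASy-WT libraries were above all 4 others, as in 19.9% of all genes tested. The 3 groups did not overlap, with PIASy-Mut between the others, an order whose share among all genes was not computed. These levels rest on 2 and 2, 5 and 7, and 20 and 12 fragments, so non-injection was under the 3 fragments that a count of 0 allows. Krt18 was the 1 gene of the 10 that rose in PIASy-WT against non-injection, by 2.21 ± 0.40 on the log2(FPKM + 1) scale (95% interval 1.25 to 3.18; adjusted P=0.0358 in limma).

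Scaled to library totals, PIASy-WT held 8.06 times the Krt18 fragments of non-injection (95% interval from counting error 2.86 to 31.4), from 32 and 4 fragments in all. It held 2.05 times the PIASy-Mut level (1.03 to 4.37). The fitted difference of Krt18 from non-injection depends on the pseudocount and was 1.19 with a pseudocount of 5 and 2.86 with 0.1. From PIASy-Mut it was 0.86 ± 0.40 (95% interval −0.10 to 1.83; adjusted P=0.220 in limma). PIASy-Mut minus non-injection was 1.35 ± 0.40 for Krt18 (0.38 to 2.32; unadjusted P=0.0142, adjusted P=0.879 in limma). The call against non-injection was kept in 10 of 18 alternatives. It was lost with no filter, no mean-variance trend, the replicate block and voom weights (adjusted P of 0.0511 to 0.0655 in limma). Without either non-injection or either PIASy-WT library the difference of Krt18 from non-injection was 1.97 to 2.45.

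Krt8, the type II partner of Krt18, lies at chr15:101996711-102004342 on the minus strand and was below the level needed for the test. It stood at 0 and 0.490 FPKM (non-injection), 0.537 and 0 (PIASy-Mut) and 0.836 and 1.93 (PIASy-WT), from 0, 1, 1, 0, 2 and 4 fragments. Both PIASy-WT libraries were above the 4 others, and only PIASy-WT library 2 exceeded 3 fragments. Krt8 entered the fit with no filter on low values, where 0 of the 10 genes were called at a log2 difference of 1 or more in any comparison.

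**Figure D2:**
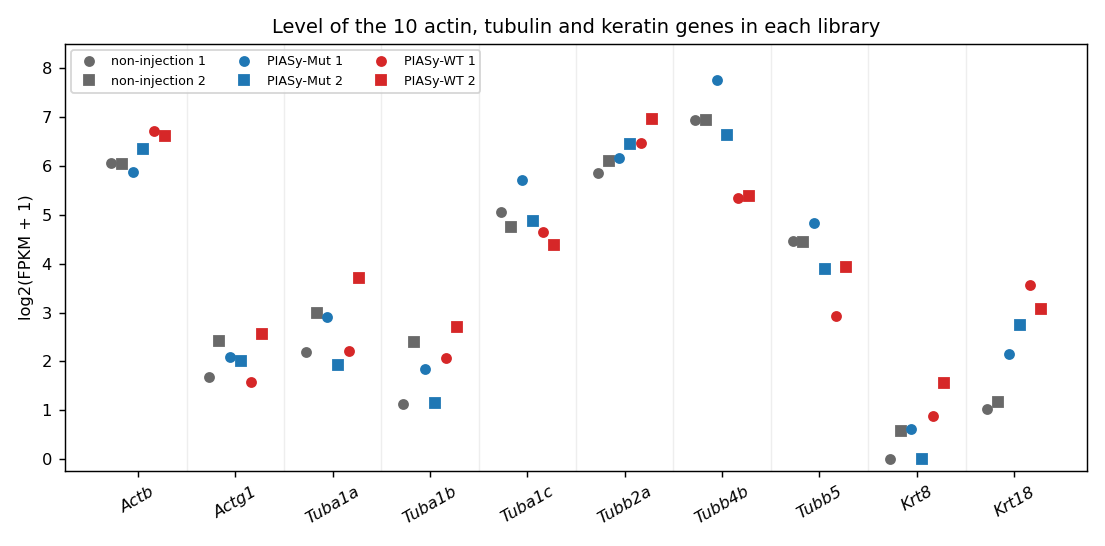
Points give log2(FPKM + 1) of each gene in each of the 6 libraries, coloured by group, with circles for library 1 and squares for library 2. Both PIASy-WT points lay below all others for Tubb4b and Tuba1c and above all others for Actb, Tubb2a, Krt8 and Krt18.

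The order of the levels differed between the groups. In non-injection Tubb4b stood first, followed by Actb and Tubb2a, whose libraries overlapped, then Tuba1c and Tubb5. Tuba1a, Actg1, Tuba1b and Krt18 followed, each overlapping the next, and Krt8 was last. In PIASy-Mut the order began with Tubb4b, Tubb2a and Actb (overlapping), Tuba1c and Tubb5, and Krt18 overlapped Tuba1a. In PIASy-WT Tubb2a (106 ± 25.6 FPKM, SD, n = 2) and Actb (100.5 ± 5.25) came first and overlapped, and Tubb4b (40.3 ± 0.768) came next. From Tubb5 to Actg1 every neighbour in PIASy-WT overlapped the next, which places Krt18 among Tubb5, Tuba1a, Tuba1b and Actg1.

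Counted over the 9 genes that entered the test, 0 fell and 1 (Krt18) rose in PIASy-WT compared with non-injection in limma, beside 5.76% lower and 1.03% higher of all genes tested. At an unadjusted P under 0.05, 1 was lower and 2 were higher, beside 17.6% and 10.6% of all genes tested. limma with voom weights on fragments, which 8 of the 9 entered, called 1 lower (Tubb4b) and 0 higher, beside 18.9% and 8.74% of 10193 genes. In limma without such weights Krt18 was also called at a difference of at least 2, where the background was 3.81% lower and 0.602% higher. Against PIASy-Mut 1 gene (Tubb4b) was lower and 0 were higher, beside 6.01% and 0.82% of all genes. At a difference of at least 2 none of the 9 was called in limma, beside 4.06% and 0.516%, while at an unadjusted P under 0.05 there was 1 lower and 0 higher, beside 18.2% and 9.46%. Voom weights called 1 lower and 0 higher there, beside 18.7% and 6.04%. Between PIASy-Mut and non-injection none was called in limma or with voom weights, beside 0% lower and 0.00621% higher, with Krt18 alone at an unadjusted P under 0.05. The shares of all genes were 2.09% lower and 2.37% higher at that unadjusted P, and 0% and 0.0196% with voom weights. The other 8 differences of that comparison lay between −0.26 (Tuba1b) and 0.39 (Tuba1c). The median of the 9 differences for PIASy-WT was 0.38 with non-injection as the reference and 0.42 with PIASy-Mut, and over all genes tested it was 0.0087 and −0.035. Both PIASy-WT libraries were above all 4 others in 3 of the 9 tested genes and below in 2, beside the 19.9% and 24.4% of all genes tested, and above in Krt8, which was not tested. PIASy-WT libraries enter both comparisons, so the pair of counts is not independent.

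**Figure D3:**
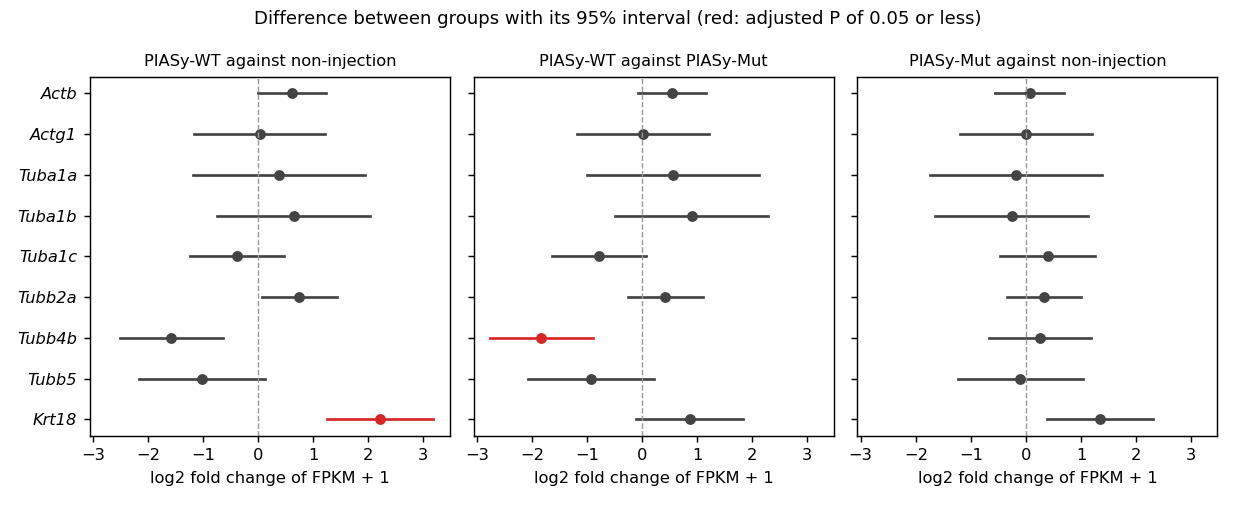
Points and bars give the log2 difference of FPKM + 1 and its 95% interval for the 9 tested genes in each of the 3 comparisons, and red marks an adjusted P of 0.05 or less in limma. Red marks Krt18 in PIASy-WT against non-injection (2.21) and Tubb4b in PIASy-WT against PIASy-Mut (−1.83), and no gene in PIASy-Mut against non-injection.

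Other genes of the same families were read from lists of family members. None of the 5 other actins reached a mean of 5 FPKM, and of the 16 other keratins only Krt10, a keratin of differentiating epidermis, did. Krt10 had 4.51 and 4.18 FPKM (non-injection), 9.17 and 8.14 (PIASy-Mut) and 15.3 and 6.17 (PIASy-WT), so PIASy-WT spanned PIASy-Mut. Of 14 other tubulins, 8 reached this mean. The highest was Tubg2, a gamma tubulin of the microtubule-organizing centre, at 60.6 and 97.8, 55.2 and 72.6, and 77.0 and 124 FPKM, and the groups overlapped. Tuba3b stood at 35.5 and 48.3, 32.7 and 52.4, and 26.4 and 19.1, and Tuba4a at 24.4 and 22.7, 34.0 and 23.6, and 15.7 and 15.5, both lowest in PIASy-WT. Tubal3 stood at 4.41 and 3.36, 3.07 and 4.72, and 8.60 and 8.26, highest in PIASy-WT.

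Tubb6, Tubg1, Tubb3 and Tuba3a had between 4.56 and 40.8 FPKM in every library. None of these 9 genes passed in any comparison in limma. Over the 14 tested genes of these 3 lists, 1 was lower and 2 were higher than in non-injection at an unadjusted P under 0.05, beside 17.6% and 10.6% of all genes, and voom weights gave 0 calls there. Against PIASy-Mut 2 were lower and 2 higher at that P, beside 18.2% and 9.46%, and voom weights called 1 higher, beside 6.04%. For Tuba4a the difference from PIASy-Mut was −0.82 ± 0.28 (95% interval −1.51 to −0.13; adjusted P=0.126 in limma), and for Tubal3 it was 0.97 ± 0.35 (0.10 to 1.83; adjusted P=0.144 in limma).

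Factors that fold actin and tubulin held several genes that fell. This list holds the chaperonin CCT, which folds both proteins, its helper prefoldin and the tubulin cofactors, and 5 of 21 tested genes fell in PIASy-WT in each comparison (23.8%, beside 5.76% and 6.01% of all genes tested). The 5 were Pfdn6, Tbcb, Cct3, Tcp1 and Cct8 both times, and 0 rose in limma, with 11 lower in each comparison and 0 and 1 higher at an unadjusted P under 0.05, and 9 and 8 lower and 0 higher with voom weights. Of all genes, 17.6% and 18.2% were lower by the first of these looser rules and 18.9% and 18.7% by the second. Over the list the median difference was −0.70 against non-injection and −0.68 with PIASy-Mut as the reference, where all genes tested had 0.0087 and −0.035.

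Tbcb, a cofactor that handles alpha tubulin, had 93.0 and 79.7 FPKM (non-injection), 129.7 and 67.6 (PIASy-Mut) and 12.0 and 9.05 (PIASy-WT). Its difference was −2.93 ± 0.37 from non-injection (adjusted P=0.0247 in limma) and −3.05 ± 0.37 from PIASy-Mut (adjusted P=0.0224 in limma). Pfdn6, a prefoldin subunit, had 22.1 and 37.8, 47.9 and 35.6, and 3.79 and 2.19 FPKM, with 6 and 3 fragments in PIASy-WT. Its difference was −2.94 ± 0.39 and −3.44 ± 0.39 in the same order of comparisons. In both genes the PIASy-WT libraries stood far below the 4 others.

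The CCT subunit Cct3 had 56.2 and 64.8 FPKM (non-injection), 96.7 and 41.8 (PIASy-Mut) and 14.0 and 9.42 (PIASy-WT). Tcp1, the first CCT subunit, had 87.6 and 88.6, 121.5 and 61.6, and 26.1 and 27.0. Their differences were −2.30 ± 0.44 and −1.69 ± 0.35 from non-injection, and −2.37 ± 0.44 and −1.67 ± 0.35 from PIASy-Mut. Of 18 alternatives, 12 kept the call of Cct3 and 7 that of Tcp1 against non-injection, and 8 and 4 kept them against PIASy-Mut. Both Tbcb and Pfdn6 kept theirs in 14 and 12 in the same order of comparisons. Cct8, named for completeness after its values were seen, was at −1.73 ± 0.30 and −1.59 ± 0.30. In PIASy-Mut against non-injection none of the 21 genes passed in limma, at an unadjusted P under 0.05 or with voom weights.

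Of 32 tested microtubule regulators, 5 fell and 1 rose against non-injection, and 4 fell and 1 rose against PIASy-Mut, beside 5.76% and 6.01% lower and 1.03% and 0.82% higher of all genes tested. At an unadjusted P under 0.05, 9 were lower in each comparison and 3 and 6 higher, and voom weights called 9 and 8 lower and 2 higher in each. The shares of all genes at that unadjusted P were 17.6% and 18.2% lower and 10.6% and 9.46% higher, and with voom weights 18.9% and 18.7% lower and 8.74% and 6.04% higher. Kif11, the motor that pushes spindle poles apart, had 37.9 and 49.7 FPKM (non-injection), 79.8 and 35.5 (PIASy-Mut) and 8.45 and 7.58 (PIASy-WT), with differences of −2.30 ± 0.42 and −2.59 ± 0.42. Tacc3, a spindle protein, had 47.5 and 54.8, 92.5 and 57.2, and 16.4 and 13.7, with −1.70 ± 0.31 and −2.21 ± 0.31. The PIASy-WT libraries of both genes were well below the others.

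Map1lc3b, better known for autophagy, had 84.9 and 85.3, 106 and 67.0, and 26.2 and 15.6 FPKM, with differences of −2.02 ± 0.35 and −2.00 ± 0.35. Stmn3, a stathmin that binds tubulin, had 21.3 and 49.0, 74.2 and 25.2, and 3.98 and 3.06 FPKM, the last from 6 and 4 fragments, with −2.89 ± 0.61 and −3.30 ± 0.61. Both stood lowest in PIASy-WT. Tpx2 and Svbp were named after their values were seen. Tpx2, a spindle assembly factor, fell against non-injection (−1.28 ± 0.27, adjusted P=0.0495 in limma) and missed the threshold against PIASy-Mut (−1.26 ± 0.27, adjusted P=0.0511 in limma). Svbp, the partner of the enzymes that remove the last tyrosine of alpha tubulin, rose by 1.84 ± 0.38 and 1.89 ± 0.38, from 1 or 2 fragments in each other library to 10 and 11 in PIASy-WT. Scaled to library totals, Svbp was at 5.29 times non-injection (95% interval from counting error 1.79 to 21.2) and 5.39 times PIASy-Mut (1.61 to 28.2).

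Of 42 tested actin regulators, 1 fell against non-injection (2.38%) and 2 against PIASy-Mut (4.76%), beside 5.76% and 6.01% of all genes, and none rose in limma. At an unadjusted P under 0.05, 4 were lower in each comparison and 8 and 5 higher, and voom weights called 3 and 4 lower and 5 and 3 higher, where the shares of all genes are those given for the microtubule regulators. Arpc1a, a subunit of the Arp2/3 complex that branches actin filaments, had 81.4 and 64.8 FPKM (non-injection), 78.1 and 63.9 (PIASy-Mut) and 16.5 and 14.9 (PIASy-WT). Its difference was −2.14 ± 0.26 and −2.10 ± 0.26 (adjusted P=0.0228 and 0.0225 in limma). Tpm3, a tropomyosin that coats actin filaments, had 12.3 and 13.8, 20.2 and 12.8, and 4.59 and 5.15 FPKM, and fell against PIASy-Mut alone (−1.55 ± 0.33, adjusted P=0.0487 in limma), with −1.26 ± 0.33 and adjusted P=0.0723 in limma against non-injection. None of 6 tested genes of the serum response factor axis, which is known to drive actin genes, passed in any comparison in limma, at an unadjusted P under 0.05 or with voom weights, which 4 of them entered.

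Of 9 tested keratin partners and other intermediate filament genes, 2 fell and none rose in limma in either comparison with PIASy-WT, beside 5.76% and 6.01% lower of all genes tested. With voom weights 2 of the 7 that entered were lower and 0 higher, beside 18.9% and 18.7% lower. At an unadjusted P under 0.05 there were 2 lower in each comparison with 1 (against non-injection) and 0 higher. The shares of all genes by that rule were 17.6% and 18.2% lower and 10.6% and 9.46% higher. Epcam, an epithelial adhesion protein, had 179 and 184 FPKM (non-injection), 174 and 123 (PIASy-Mut) and 30.3 and 28.1 (PIASy-WT), with differences of −2.60 ± 0.26 and −2.28 ± 0.26. Tchp, a keratin-binding protein, had 5.35 and 5.14, 5.76 and 3.57, and 0.408 and 0.470 FPKM, the last from 4 and 4 fragments, with −2.12 ± 0.39 and −1.95 ± 0.39. Over 18 alternatives the Tchp differences ranged from −3.43 to −0.91 and from −3.24 to −0.82, and 11 and 6 kept the calls.

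Over all 8 lists, 124 of 178 genes were tested, of which 13 fell (10.5%) and 1 rose in each comparison with PIASy-WT, beside 5.76% and 6.01% lower and 1.03% and 0.82% higher of all genes, and none passed in PIASy-Mut against non-injection in limma or with voom weights (1 lower and 1 higher at an unadjusted P under 0.05). At a difference of at least 2 the number that fell was 9, beside 3.81% and 4.06%. At an unadjusted P under 0.05, 27 and 28 were lower and 14 were higher in each comparison with PIASy-WT. Of all genes, 17.6% and 18.2% were lower and 10.6% and 9.46% higher by that rule. Voom weights called 23 and 22 of 114 lower and 7 and 6 higher, beside 18.9% and 18.7% lower and 8.74% and 6.04% higher of all genes. Fits without 1 library leave 1 library in a group, so their counts of list genes are not compared with those above.

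**Figure D4:**
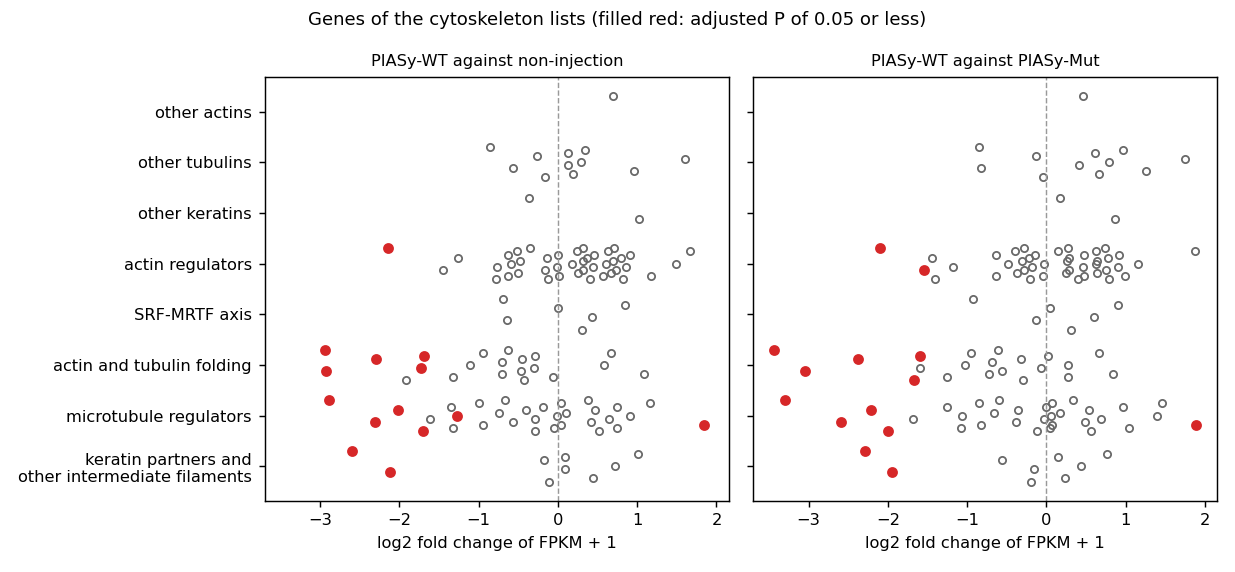
Each point is 1 tested gene of a cytoskeleton list, placed by its log2 difference of FPKM + 1 in PIASy-WT against non-injection (left) and against PIASy-Mut (right), and filled red points passed an adjusted P of 0.05 in limma. Of 124 genes, 13 filled points lie below 0 and 1 above 0 in each panel, and 5 of those below 0 belong to the folding list.

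The genes most like the member of each family with the highest mean FPKM over all 6 libraries (Tubb4b for the beta tubulins, although Tubb2a led in PIASy-WT) were sought by Pearson's r of log2(FPKM + 1) over the 6 libraries, which share their depth and groups, among 4719 or 4720 genes with a mean of at least 10 FPKM. For Tubb4b they were Dcaf13, Atg14 and Gar1 (r = 0.999 each), and 1427 genes had an r above 0.9. For Actb they were Micu2, Eif4e1b and Ptcd2 (0.998, 0.998 and 0.996), with 673 above 0.9. For Tuba1c they were Ppp1ca, Bbs5 and Atp5f1 (0.994, 0.991 and 0.988), with 111 above 0.9, and for Krt18 Haus4, Stat6 and Hdlbp (0.993, 0.987 and 0.987), with 188. The profile of Tubb4b over the libraries was thus shared by many more genes than that of Tuba1c or Krt18.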

How the data were processed

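The authors removed reads and bases under Q20 and adapters (Trim Galore), mapped to mm10 (STAR) and let featureCounts assign uniquely mapped fragments to genes, pooling no libraries. They deposited 1 table of FPKM values for 53023 genes. Spike-in RNA was added at lysis, and the table holds 0 spike-in rows, so total RNA was not compared. The annotation release is not given in the sources used here. 50248 gene identifiers matched GENCODE M21, from which transcripts and coding sequences were taken. Promoter sequences are from RefSeq (GRCm38.p6).

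The product of FPKM and gene length, in units of 1 fragment, was whole for 100% of values (tolerance 0.01), from which fragments per library were recovered. Intervals and limits from fragments cover counting error only, since amplified reads are not independent molecules. The main test was limma 3.58.1 (R 4.3.3) with a mean-variance trend on log2(FPKM + 1), with all 6 libraries and no block, over the 16100 genes with at least 1 FPKM in at least 2 libraries, which held 9 of the 10 genes. It had 3 residual and 3.12 prior degrees of freedom. The pseudocount of 1 understates changes of low genes. Adjusted P-values are Benjamini-Hochberg values, and the steps were tested on simulated data. Coding sequences were aligned with mafft.

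The 10 genes and all lists were chosen with earlier results of these data known. Named from the lists were, of other actins, tubulins and keratins, all genes with a mean of at least 5 FPKM, and of each other list up to 4 genes with the largest mean difference over both comparisons with PIASy-WT, among those with an adjusted P of at most 0.05 in either and at least 10 fragments in 2 libraries. Alternatives changed the pseudocount, filter, scaling, variance model and libraries used. limma with voom weights on fragments, over genes with at least 10 in at least 2 libraries, was chosen after seeing the data.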

Additional observations from a re-analysis of the deposited data

How the results depend on the processing

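Each choice was changed alone, except that voom on recovered fragments changed the filter, the scale and the variance model together, and the cause of a change was not tested unless fewer genes or libraries were used. The count of the 10 genes called in PIASy-WT against non-injection (1 at a log2 difference of at least 1 and 1 at 2) became 0 at both sizes with no filter on low values, with no mean-variance trend and with the replicate block, and 0 at 2 with a pseudocount of 5 and with voom on recovered fragments. At 1 it became 2 with a filter of 5 FPKM in 2 libraries and with only the 4 libraries compared, where Tubb4b joined Krt18. In PIASy-WT against PIASy-Mut the count at 1 (1, Tubb4b) became 0 with a pseudocount of 0.1 or 5, no filter, quantile normalization, median-ratio scaling, no mean-variance trend, robust eBayes, only the 4 libraries compared and the replicate block. Leaving out 1 library gave counts of 0 to 1 at 2 and 0 to 2 at 1 against non-injection, and 0 to 1 at both sizes against PIASy-Mut, where the 1 at 2 was Tubb4b without PIASy-Mut library 2.

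The count of list genes called against non-injection (14, or 11.3% of those tested) became 9 with a pseudocount of 5, 4 with no filter, 5 with no mean-variance trend, 22 with only the 4 libraries compared, 9 with the replicate block and 25 with voom. These were 7.26%, 2.38%, 4.03%, 17.7%, 7.26% and 21.9% of the list genes tested. The share of all genes called moved with it, from 6.80% to 4.99%, 0.611%, 1.96%, 13.3%, 5.02% and 25.6% in the same order. With a filter of 5 FPKM in 2 libraries it was 23.0% of list genes and 21.2% of all genes. Against PIASy-Mut (14) it became 5 with no filter, 7 with quantile normalization, 8 with no mean-variance trend, 0 with only the 4 libraries compared and 24 with voom, and 0 to 28 without 1 library, while the share of all genes went from 6.83% to 0.913%, 3.88%, 3.44%, 0% and 23.3%. As fragments, the ratio of Tubb4b to Tubb2a averaged 2.56 in non-injection (1.98 as FPKM) and 0.506 in PIASy-WT (0.390). That of the summed alpha to the summed beta tubulin members was 0.168 in non-injection (0.181).

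Of 477 log2 differences of the 9 tested genes under alternatives, 22 changed sign, all in differences that had not passed. Actg1 against PIASy-Mut was −0.01 with a pseudocount of 0.1 and −0.07 with voom. In PIASy-Mut against non-injection Actg1 was −0.01 with a pseudocount of 5, −0.05 with quantile normalization and −0.03 with median-ratio scaling. Tubg1 was 0.04 (non-injection) and 0.35 (PIASy-Mut) with quantile normalization and 0.08 with median-ratio scaling. Without 1 library, PIASy-WT minus non-injection ranged from −0.47 to 0.52 for Actg1, −0.37 to 1.12 for Tuba1a, −0.38 to 0.64 for Tuba3a and −0.13 to 0.50 for Tubb3. PIASy-WT minus PIASy-Mut ranged from −0.47 to 0.51 for Actg1, −0.19 to 1.31 for Tuba1a, −0.33 to 0.26 for Tubg1 and −0.43 to 0.76 for Krt10. PIASy-Mut minus non-injection ranged from −0.17 to 0.30 for Actb, −0.36 to 0.37 for Actg1, −0.67 to 0.31 for Tuba1a, −0.89 to 0.38 for Tuba1b, −0.02 to 0.81 for Tuba1c, −0.30 to 0.81 for Tubb4b and −0.57 to 0.37 for Tubb5. Quantile normalization moved the median difference of all genes against PIASy-Mut by 0.12, from −0.035 to 0.083, and the other scalings and comparisons moved it by under 0.1. Relative to the median, the 9 genes kept their sign under both scalings, with Tubb4b against PIASy-Mut at −1.58 (−1.80 in the reported fit) and Krt18 against non-injection at 2.28 (2.20) under quantile normalization. Without either non-injection or either PIASy-WT library, 0 of all 16100 genes passed in any comparison, nor did any in PIASy-WT against PIASy-Mut without PIASy-Mut library 1 or with only the 4 libraries compared, so the counts of 0 there say nothing of these genes.

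Replicate numbers are shared by the groups, and deviations of same-numbered libraries correlated at 0.0037, 0.085 and 0.064. No large shared deviation was thus seen, but 2 libraries per group cannot show whether the numbers mark pairs or batches. With the replicate block, adjusted P in limma was 0.052 for Krt18 against non-injection and 0.0538 for Tubb4b against PIASy-Mut. With 2 libraries per group and under 15 fragments for several genes, small differences were not detectable.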
